A study of Mus musculus with 4 samples.

Results

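The 45 genes described here carry out or control DNA replication and entry into S phase. They were listed by gene symbol from their known roles in origin licensing, the replication fork, nucleotide synthesis and G1/S control, and not by a rule on their values. All 45 were measured, out of 19938 named genes, each through its brightest probe set with a single gene symbol. Expression was measured in mouse bone marrow-derived dendritic cells, which were grown from marrow with GM-CSF at 20 ng/mL, the cytokine under which myeloid precursors become such cells. On day 10 the cells were electroporated with siRNA, and 24 hours later they were given LPS, a bacterial lipid that TLR4 detects, or left unstimulated. The groups were NR4A3 siRNA with 100 ng/mL LPS for 24 hours, control siRNA with the same LPS, NR4A3 siRNA unstimulated and control siRNA unstimulated. All 4 groups had the same culture conditions and were electroporated, and the labels give C57BL/6 as the strain of the samples but BALB/c for the bone marrow in the growth protocol. With 1 array in each group, no difference between 2 arrays can be set against replicates or given a p-value.

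Replication starts when the origin recognition complex, with Cdc6 and Cdt1, loads the ring of MCM2 to MCM7 proteins onto DNA in G1. In S phase Cdc45 and the GINS complex join that ring to form the active helicase, primase and the DNA polymerases copy both strands, and the PCNA clamp, set in place by replication factor C, holds the polymerases on DNA. Transcription of many of these genes is switched on by E2F factors once cyclin-dependent kinases inactivate the retinoblastoma proteins. In cultures with GM-CSF, precursors divide while mature dendritic cells have mostly left the cell cycle. In bulk RNA, fewer cells in S phase and less RNA of these genes per cell cannot be told apart.

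Promoters are shown first because E2F words in them are a sequence feature that the choice of genes did not use. RefSeq promoter windows (GRCm38.p6, 250 bases before to 50 bases after a start site) were matched for 38 of the 45 genes, with 44 windows in all. The E2F words searched, on both strands, were TTTCCCGC, TTTGGCGC, TTTCGCGC and TTTGCCGC, which can overlap one another. At least 1 word was found in 14 of 44 windows, or 31.8%, against 2.26% of 32851 promoter windows of all genes. The CCAAT box, searched as CCAAT on both strands, was found in 61.4% of the windows against 37.4% of all windows. The NR4A response element AAAGGTCA was in 0 of the 44 windows and in 1.51% of all windows. A match is a description of these letters and not a measured binding site. The windows below belong to 3 MCM genes and the polymerase gene Pola1, which hold E2F words, and to Rrm2 and Tyms, which hold none and had the widest range over the arrays among the genes with a window. Capitals mark the E2F words.
Mcm3 promoter, chr1:20820263-20820562, minus strand: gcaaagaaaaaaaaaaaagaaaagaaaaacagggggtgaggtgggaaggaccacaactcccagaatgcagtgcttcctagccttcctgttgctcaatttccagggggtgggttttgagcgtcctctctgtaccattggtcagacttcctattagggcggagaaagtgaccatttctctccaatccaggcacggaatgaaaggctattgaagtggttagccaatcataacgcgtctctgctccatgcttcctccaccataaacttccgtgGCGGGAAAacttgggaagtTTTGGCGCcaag
Mcm5 promoter, chr8:75109259-75109558, plus strand: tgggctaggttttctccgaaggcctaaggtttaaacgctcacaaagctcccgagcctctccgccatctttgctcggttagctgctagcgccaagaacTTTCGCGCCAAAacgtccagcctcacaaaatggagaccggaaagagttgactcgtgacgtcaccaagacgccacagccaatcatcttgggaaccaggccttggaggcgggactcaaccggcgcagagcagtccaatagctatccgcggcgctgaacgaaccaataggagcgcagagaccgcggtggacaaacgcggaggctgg
Mcm6 promoter, chr1:128359656-128359955, minus strand: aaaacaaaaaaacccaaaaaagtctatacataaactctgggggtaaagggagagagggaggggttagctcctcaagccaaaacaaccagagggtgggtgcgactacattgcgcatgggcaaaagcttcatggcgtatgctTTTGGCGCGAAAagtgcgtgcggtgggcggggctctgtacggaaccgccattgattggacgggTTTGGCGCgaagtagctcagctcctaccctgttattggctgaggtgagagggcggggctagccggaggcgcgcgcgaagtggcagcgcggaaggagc
Pola1 promoter, chrX:93632106-93632405, minus strand: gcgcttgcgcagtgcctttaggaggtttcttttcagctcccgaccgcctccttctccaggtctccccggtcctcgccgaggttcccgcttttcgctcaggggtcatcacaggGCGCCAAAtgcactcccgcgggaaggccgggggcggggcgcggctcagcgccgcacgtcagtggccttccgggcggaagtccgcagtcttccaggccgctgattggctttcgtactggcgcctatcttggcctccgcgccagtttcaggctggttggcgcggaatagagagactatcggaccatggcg
Rrm2 promoter, chr12:24708004-24708303, plus strand: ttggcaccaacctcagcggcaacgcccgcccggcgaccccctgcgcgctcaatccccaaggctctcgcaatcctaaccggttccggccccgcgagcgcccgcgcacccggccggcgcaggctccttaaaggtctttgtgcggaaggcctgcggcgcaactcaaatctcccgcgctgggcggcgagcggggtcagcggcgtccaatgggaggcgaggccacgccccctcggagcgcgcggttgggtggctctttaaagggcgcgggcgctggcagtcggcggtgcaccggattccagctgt
Tyms promoter, chr5:30073576-30073875, minus strand: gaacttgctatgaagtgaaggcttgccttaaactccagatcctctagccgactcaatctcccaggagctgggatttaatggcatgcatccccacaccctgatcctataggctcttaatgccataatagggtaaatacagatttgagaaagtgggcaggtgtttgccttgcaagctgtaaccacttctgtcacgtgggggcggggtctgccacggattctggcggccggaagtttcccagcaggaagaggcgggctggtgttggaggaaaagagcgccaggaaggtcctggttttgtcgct
In the Mcm5 window the capitals are 2 overlapping words on opposite strands, the first at position -153 from the start site. In Mcm6 the first run of capitals is such an overlapping pair as well. The 14 genes with an E2F word and the 24 genes with a window but no word had median differences near each other in every comparison: -0.14 and -0.11 on the log2 scale for NR4A3 siRNA with LPS, -0.26 and -0.30 for NR4A3 siRNA in unstimulated cells, -0.21 and -0.29 for LPS with NR4A3 siRNA, and -0.37 and -0.46 for LPS with control siRNA.

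Nr4a3, the targeted gene, stood at 9.39 and 11.77 (log2) with NR4A3 siRNA and control siRNA under LPS, and at 7.15 and 11.21 without LPS, so it was 5.21-fold and 16.6-fold lower. Each array had a median of 6.37 to 6.42 over 28856 probe sets. Of the dendritic cell markers, Itgax (12.38 to 12.89) and Cd74 (13.38 to 13.47) were high on every array, while Flt3 stayed at or below 6.33. Others differed between the siRNAs: Cd83, a maturation marker, had 10.63 and 12.36 with NR4A3 siRNA and control siRNA under LPS, and 8.44 and 11.09 without, and fell by 2.19 with NR4A3 siRNA (adjusted p 0.011 in limma's additive fit of siRNA and LPS). Ccr7, a chemokine receptor of migrating dendritic cells, had 12.64 and 13.38 with LPS and 9.46 and 12.99 without, in the same siRNA order, and did not pass (adjusted p 0.095). Their part in the results on the 45 genes was not tested. All 7 macrophage markers measured reached 6.66, the median level of named genes, on at least 1 array. So did 3 of 3 monocyte, 4 of 5 early progenitor, 1 of 5 mast cell and basophil and 1 of 10 neutrophil markers. Of the B cell, T and NK cell and erythroid markers, 0 of 3 did in each list.

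Across the 45 genes 1 array stood above the rest. Control siRNA without LPS had the highest level for 38 of the 45 genes (84.4%), against 18.9% of all 10592 genes that reached 6.66 on at least 1 array. The lowest level was on the array of NR4A3 siRNA with LPS for 29 genes (64.4%), against 17.7% of those 10592. The remaining 7 highest levels were 3 on control siRNA with LPS and 4 on NR4A3 siRNA without LPS. Of the 45 genes, 31 were at or above 6.66 on all 4 arrays, 8 on some, and 6 on none (Orc1, Cdc6, Gins1, Chek1, Brca1 and Exo1). The 8 genes that passed on some arrays all had their highest level with control siRNA without LPS, so their passing depends on the array in which they are high. Expression values of these genes are compared within a gene only, since probes differ between genes.

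**Figure D1:**
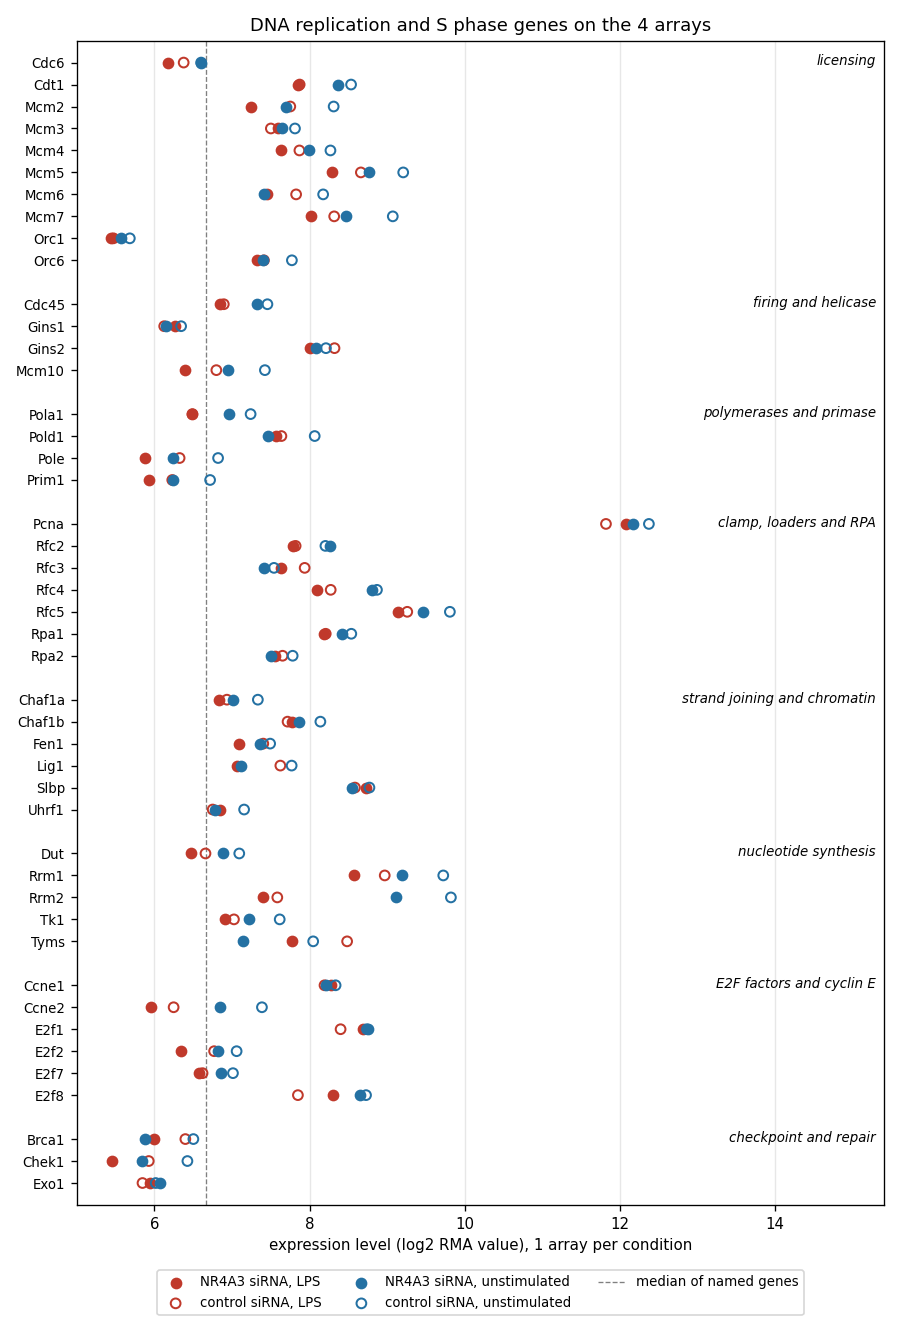
Expression level (log2 RMA value) of the 45 genes, grouped by role, with 1 point per array: filled for NR4A3 siRNA and open for control siRNA, red for LPS and blue for unstimulated. The open blue point, control siRNA without LPS, is the rightmost in 38 of 45 rows, and the dashed line marks 6.66, the median of named genes.

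LPS against no LPS compares the levels of the replication genes with and without activation, with 1 array per condition. Most of the genes were lower with LPS by modest amounts, and Rrm2 and Ccne2 by larger ones. An additive fit of siRNA and LPS over the 4 arrays (limma, Benjamini-Hochberg adjustment over 10592 genes) tested the average LPS effect of 39 of the 45 genes. With LPS 21 of the 39 fell, 1 rose and 17 did not pass the test at an adjusted p of 0.05. Over all genes tested, 14.4% fell and 15.6% rose. The 21 include all 8 genes that reached 6.66 on some arrays only, each of which passed the filter through the array in which it is high. Among genes whose mean over the arrays was at least 6.66, 18 of 36 of the replication genes fell and 1 rose, against 14.2% and 15.8% of 10034 genes. Of the 31 at or above 6.66 on all 4 arrays 13 fell and 1 rose, against 13.5% and 15.1% of 9342 genes. The median effect of the 39 genes was -0.38 on the log2 scale. The fit has 1 residual degree of freedom per gene, made of array noise and of any difference between the LPS effects under both siRNAs, and whether the 4 RNAs are from separate cultures is not in the labels.

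In the raw differences, 35 of 45 genes were below 0 with NR4A3 siRNA, where 54.7% of all 19938 genes were, and 42 of 45 with control siRNA, where 50% were. The medians of the 45 were -0.29 with NR4A3 siRNA and -0.40 with control siRNA. No array belongs to both comparisons, and 34 genes (75.6%) were below 0 in both and 2 above 0 in both. Of the 10592 genes at the filter 39.1% were below 0 in both and 39.4% above. At 1.5-fold, with the brighter array of the pair at 6.66 or more, 4 of 37 genes were lower with NR4A3 siRNA (6.88% of 10353 genes) and 1 higher (10.3%). With control siRNA 10 of 39 were lower (9.44% of 10346 genes) and 0 higher (10.2%). The share of lower genes with NR4A3 siRNA is near that of all genes by this count. At 2-fold 1 gene was lower with NR4A3 siRNA (2.71% of all) and 0 higher (5.31%), and with control siRNA 2 were lower (3.83%) and 0 higher (5%). At a difference of 0.32 on the log2 scale 16 were lower with NR4A3 siRNA (16.1%) and 1 higher (20.1%), and with control siRNA 29 were lower (19.4%) and 2 higher (18.5%). With a filter at 8.67, the 75th percentile of named genes, 3 of 8 genes were counted lower with NR4A3 siRNA (8.05% of 5481 genes) and 5 of 10 with control siRNA (10.6% of 5453), and the fit called 7 of 10 lower (17.1% of 5761).

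The enzymes of nucleotide synthesis held both the largest fall and the only rise. Rrm2, the regulated small subunit of ribonucleotide reductase, which makes deoxynucleotides, stood at 7.40 with NR4A3 siRNA and 7.58 with control siRNA under LPS, and at 9.11 and 9.82 without LPS. Both LPS arrays were far below both unstimulated ones, by 3.27-fold with NR4A3 siRNA and 4.71-fold with control siRNA. From the lowest difference it ranked 61 of 10353 and 40 of 10346 genes. The average effect was -1.97 ± 0.15 (SE), with an adjusted p of 0.00048 in limma's fit. Rrm1, the large subunit of the same enzyme, had 8.58 and 8.97 with LPS under NR4A3 siRNA and control siRNA, and 9.19 and 9.72 without. It fell by 0.69 ± 0.10 (SE, limma adjusted p 0.0051), with no overlap between LPS and unstimulated arrays.

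Tyms, thymidylate synthase, moved the other way. Its levels were 7.78 and 8.48 with LPS under NR4A3 siRNA and control siRNA, and 7.15 and 8.05 without. Within each siRNA the LPS array was higher, but the LPS array of NR4A3 siRNA lay below the unstimulated array of control siRNA. The average LPS effect was 0.53 ± 0.10 (SE, limma adjusted p 0.014). Tk1, thymidine kinase of the salvage route, fell by 0.45 ± 0.11 (adjusted p 0.031), and Dut, which removes dUTP, by 0.42 ± 0.10 (adjusted p 0.023). Tk1 has 2 probe sets, which agreed in direction but not in size: with control siRNA their LPS differences were -0.59 and -0.95.

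Of the genes of origin licensing, 5 of the 8 tested fell with LPS, where 14.4% of all genes did. Mcm7, a subunit of the MCM ring, had 8.02 and 8.32 with LPS under NR4A3 siRNA and control siRNA, against 8.46 and 9.07 without. The LPS arrays were the 2 lowest, and the effect was -0.60 ± 0.12 (adjusted p 0.014). Cdt1, which brings the ring to origins, had 7.85 and 7.87 with LPS and 8.36 and 8.53 without, in the same siRNA order, and fell by 0.59 ± 0.10 (adjusted p 0.0089). Mcm5 (-0.51), Mcm2 (-0.50) and Mcm4 (-0.38) were the other 3, with adjusted p of 0.013, 0.014 and 0.033. Mcm3 (-0.18), Mcm6 (-0.16) and Orc6 (-0.22) did not pass, with adjusted p of 0.28, 0.40 and 0.21. Mcm6 was 0.35 lower with LPS under control siRNA and 0.04 higher under NR4A3 siRNA.

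At helicase activation, Mcm10, which helps to start the fork, fell by 0.59 ± 0.10 (adjusted p 0.0075) and Cdc45, the helicase cofactor, by 0.52 ± 0.10 (adjusted p 0.012). Gins2, of the GINS complex, had an effect of 0.02 ± 0.10 (adjusted p 0.91). Cdc45 had 6.84 and 6.89 with LPS under NR4A3 siRNA and control siRNA, against 7.32 and 7.46 without, so its LPS arrays lay close together and apart from the others. Among polymerases and primase, Pola1, the catalytic subunit of polymerase alpha, had 6.49 on both LPS arrays, and 6.96 with NR4A3 siRNA and 7.24 with control siRNA without LPS. It fell by 0.61 ± 0.11 (adjusted p 0.011). Pole, of polymerase epsilon, and Prim1, the primase, fell by 0.43 and 0.40 (adjusted p 0.026 and 0.035), although each reached 6.66 on 1 array alone, that of control siRNA without LPS. Pold1, of polymerase delta, did not pass (-0.16 ± 0.15, adjusted p 0.45).

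The clamp loader subunits did not move together. Rfc4 had 8.10 and 8.27 with LPS under NR4A3 siRNA and control siRNA, against 8.81 and 8.87 without, and fell by 0.65 ± 0.10 (adjusted p 0.0057). Rfc5 and Rfc2 fell by 0.43 each (adjusted p 0.031 and 0.024). Rfc3, a subunit of the same complex, had 7.64 and 7.94 with LPS and 7.41 and 7.54 without in the same siRNA order, so both LPS arrays were above both others, and its effect of 0.31 ± 0.10 did not pass (adjusted p 0.069). Pcna, the clamp, had 12.07 and 11.82 with LPS and 12.17 and 12.37 without, an effect of -0.33 ± 0.13 (adjusted p 0.13). Its 2 probe sets gave nearly the same values, and probes could share signal with near-identical copies of the gene. Rpa1 (-0.29) and Rpa2 (-0.04), subunits of the single-strand binding protein, did not pass either. Of the 6 genes of strand joining and chromatin (Fen1, Lig1, Chaf1a, Chaf1b, Uhrf1 and Slbp), 0 passed in limma's fit at an adjusted p of 0.05 and 1, Chaf1a, at an unadjusted p of 0.05, with an effect of -0.29.

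Of the 6 E2F and cyclin E genes 4 fell with LPS, where 14.4% of all genes did. Ccne2, E2f2 and E2f7 are among the genes that passed the filter through the array in which they are high. E2f7 had 6.57 and 6.62 with LPS under NR4A3 siRNA and control siRNA, both below 6.66, so its fall is approximate. Ccne2, cyclin E2, which drives entry into S phase, had 5.96 and 6.25 with LPS under NR4A3 siRNA and control siRNA, against 6.85 and 7.39 without. Both LPS levels are below 6.66, so its fall of 1.01 ± 0.11 (adjusted p 0.0018) is approximate. Ccne1, cyclin E1, stayed between 8.19 and 8.34 on the 4 arrays, with an effect of -0.04 ± 0.11 (adjusted p 0.82). E2f8, a repressor of the family, had 8.30 and 7.85 with LPS and 8.65 and 8.73 without, and fell by 0.62 ± 0.15 (adjusted p 0.026). E2f2 (-0.39) and E2f7 (-0.34) fell as well (adjusted p 0.039 and 0.049), while E2f1, an activator, did not pass (-0.20, adjusted p 0.23). The checkpoint and repair genes Chek1, Brca1 and Exo1 stayed below 6.66 on all 4 arrays and were not tested; Chek1 differed by -0.39 and -0.50 with LPS under NR4A3 siRNA and control siRNA.

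**Figure D2:**
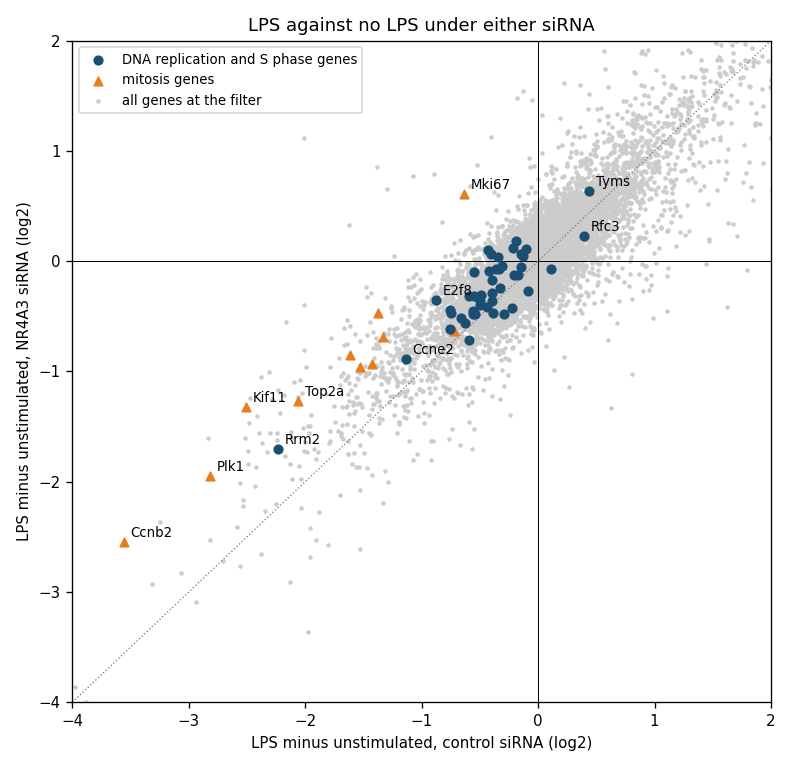
LPS minus unstimulated (log2) with control siRNA on the horizontal axis and with NR4A3 siRNA on the vertical axis, for the 45 genes, for 11 mitosis genes and for all 10592 genes at the filter, with genes beyond the axes not drawn. Of the 45 genes 34 lie below 0 on both axes, Rrm2 lies among the mitosis genes, and Tyms and Rfc3 lie above 0 on both.

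NR4A3 siRNA against control siRNA compares the levels of these genes with and without silencing of the nuclear receptor, with 1 array per condition. With LPS 35 of 45 genes were lower with NR4A3 siRNA, and in unstimulated cells 41 of 45 were, most of them slightly. Of all genes 48.8% were below 0 with LPS and 42.8% without. The medians of the 45 were -0.12 with LPS and -0.27 without. No array belongs to both of these comparisons, and 33 genes (73.3%) were below 0 in both and 2 above 0 in both. Of the 10592 genes at the filter 29.6% were below 0 in both and 41.0% above. In limma's additive fit, 4 of the 39 tested genes fell on average with NR4A3 siRNA (Tyms, Lig1, Mcm2 and Pole), against 3.58% of all 10592. Pole reached 6.66 on 1 array alone, that of control siRNA without LPS, so it passed the filter through the array in which it is high. No gene of the 39 rose, against 1.98% of all. At an unadjusted p of 0.05, 14 were lower and 0 higher, against 11.4% and 14.8% of all. The number that fell was 2 after cyclic loess normalization and 1 without a filter on low values.

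At 1.5-fold, 1 of 33 genes was lower with NR4A3 siRNA under LPS, Tyms (4.73% of 10210 genes), and 0 higher (3.73%), so that the count with LPS is not above the share of all genes. In unstimulated cells 7 of 39 were lower (4.69% of 10257 genes) and 0 higher (1.62%). The 7 were Tyms, Mcm6, Rrm2, Lig1, Mcm2, Mcm7 and Pold1. Tk1 differed by -0.39 on the log2 scale through the probe set used and was not counted. Its second probe set gave -0.79, with control siRNA at 7.42, and would be counted. At 2-fold 0 were lower with LPS (1.67% of all) and 0 without (1.72%), and 0 were higher (0.47% with LPS and 0.205% without). At a difference of 0.32 on the log2 scale 8 were lower with LPS (10.5%) and 1, E2f8, higher (16.2%), and without LPS 17 were lower (10.9%) and 0 higher (8.53%). With the filter at 8.67, 0 of 5 genes were counted lower with LPS (6.34% of 5381 genes) and 2 of 10 without (5.28% of 5192), and the fit called 0 of 10 lower for NR4A3 siRNA (5.47% of 5761).

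Tyms had the largest difference in both states. Its levels were 7.78 with NR4A3 siRNA and 8.48 with control siRNA under LPS, and 7.15 and 8.05 without LPS. It was 1.63-fold lower with LPS and 1.87-fold lower without, and fell by 0.80 ± 0.10 on average (SE, limma adjusted p 0.019). Lig1, the ligase that joins Okazaki fragments, had 7.07 with NR4A3 siRNA and 7.62 with control siRNA under LPS, and 7.12 and 7.77 without. Both NR4A3 siRNA arrays lay below both control arrays, at an average of -0.60 ± 0.10 (adjusted p 0.032). Lig1 did not pass the test for LPS (-0.10 ± 0.10, adjusted p 0.49).

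Mcm2, a ring subunit, had 7.25 and 7.75 with NR4A3 siRNA and control siRNA under LPS, and 7.70 and 8.31 without, and fell by 0.56 ± 0.10 (adjusted p 0.038). It passed the test for both silencing and LPS, and the array with both was the lowest. Pole had 5.88 and 6.33 with LPS and 6.24 and 6.82 without, in the same siRNA order, and fell by 0.51 ± 0.10 (adjusted p 0.047). Mcm6 had 7.45 with NR4A3 siRNA and 7.83 with control siRNA under LPS, and 7.41 and 8.17 without. Both silenced arrays lay below both controls, and its effect of -0.57 ± 0.13 just missed the threshold (adjusted p 0.060). Rrm1 (-0.46) and Mcm10 (-0.44) missed it narrowly as well, with adjusted p of 0.059 and 0.062.

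Some genes were close between the siRNAs without LPS. E2f1 had 8.69 and 8.40 with NR4A3 siRNA and control siRNA under LPS, and 8.76 and 8.74 without. Rfc2 had 7.79 and 7.82 with LPS and 8.26 and 8.20 without, in the same siRNA order. E2f8 had 8.30 with NR4A3 siRNA and 7.85 with control siRNA under LPS, 1.37-fold higher, and 8.65 and 8.73 without LPS. Among the roles, median differences with LPS ran from -0.41 for checkpoint and repair (3 genes, all below 6.66) to 0.02 for E2F factors and cyclin E (6 genes). In unstimulated cells they ran from -0.58 for checkpoint and repair, and -0.53 for nucleotide synthesis (5 genes) and for polymerases and primase (4 genes), to -0.13 for the clamp, its loaders and RPA (7 genes).

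**Figure D3:**
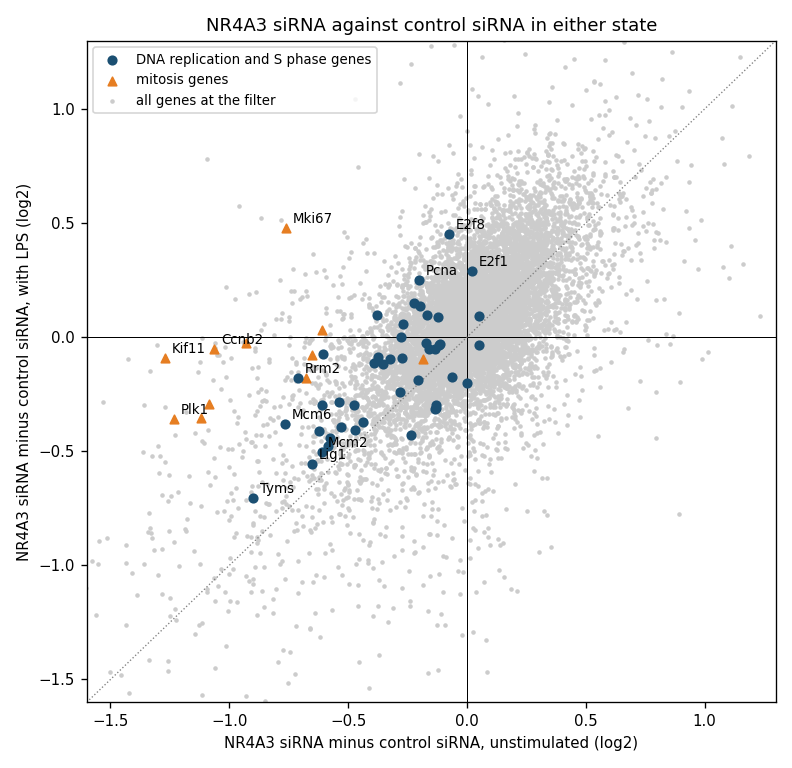
NR4A3 siRNA minus control siRNA (log2) in unstimulated cells on the horizontal axis and with LPS on the vertical axis, for the 45 genes, for 11 mitosis genes and for all 10592 genes at the filter, with genes beyond the axes not drawn. Of the 45 genes 33 lie below 0 on both axes with Tyms farthest, whereas E2f8 and Pcna are among the genes above 0 with LPS alone.

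**Figure D4:**
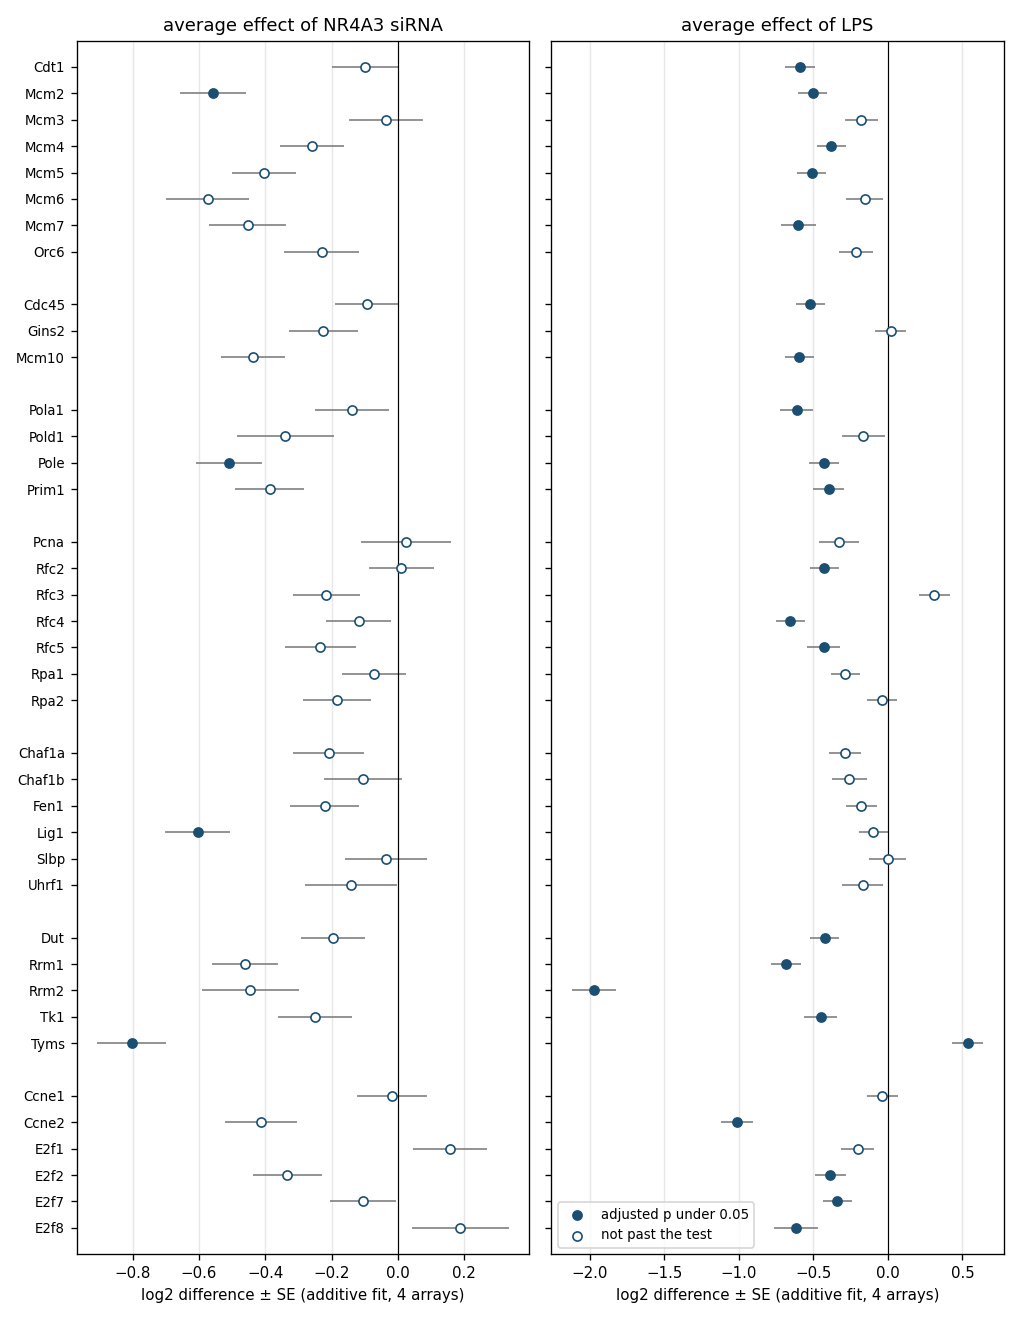
Average effects of NR4A3 siRNA (left) and LPS (right) on the 39 genes tested, as log2 difference with its SE from limma's additive fit of 4 arrays, filled where the adjusted p was under 0.05. For NR4A3 siRNA 4 genes are filled, all below 0, and for LPS 22 are, of which Tyms alone is above 0.

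The LPS effect under NR4A3 siRNA minus that under control siRNA was above 0 for 38 of 45 genes, against 49.4% of all genes, with a median of 0.18. Among genes at the filter it was above 0 for 33 of 39, against 6255 of 10592 genes, whose median was 0.05. This difference takes all 4 arrays and has no test. No gene of the 45 reached 1.5-fold in either direction, where 2.9% of 10592 genes did upwards and 2.12% downwards. At a difference of 0.32 on the log2 scale 8 of 39 did upwards (12.2% of all) and 0 downwards (6.62%). The largest values were 0.53 for Pold1 and Rrm2 and 0.52 for E2f8. Each of these differences includes the array of control siRNA without LPS, which was the highest for 38 of the genes.

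Further replication genes outside the 45 were read from a list of 52, of which 50 were measured. In limma's fit 6 of 38 tested fell with LPS and 4 rose, where 14.4% and 15.6% of all genes did. The share that fell with LPS is near that of all genes. With NR4A3 siRNA 2 fell and 0 rose, where 3.58% and 1.98% of all genes did. At an unadjusted p of 0.05, 5 were lower and 0 higher with NR4A3 siRNA, against 11.4% and 14.8% of all genes. Asf1b, a histone chaperone of the fork, had 8.28 and 8.55 with LPS under NR4A3 siRNA and control siRNA, against 9.36 and 10.21 without, and fell by 1.37 ± 0.15 (adjusted p 0.0021). Dck, deoxycytidine kinase of the salvage route, had 10.03 and 10.14 with LPS and 8.40 and 8.66 without, in the same siRNA order, and rose by 1.55 ± 0.10 (adjusted p 0.00032). Timeless, of the fork protection complex, rose by 0.78 ± 0.10 (adjusted p 0.0029).

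The other genes that rose with LPS were Gins3 and Pold3, which were also the ones that fell with NR4A3 siRNA. Gins3, a GINS subunit, had 7.18 with NR4A3 siRNA and 8.04 with control siRNA under LPS, and 6.61 and 7.59 without. Pold3, of polymerase delta, had 8.49 and 9.49 with LPS and 8.19 and 8.98 without, in the same order. Their siRNA effects were -0.91 ± 0.10 and -0.89 ± 0.11 (adjusted p 0.013 and 0.016), and their LPS effects 0.51 and 0.40 (adjusted p 0.014 and 0.036). Tyms shows the same pair of directions among the 45. The median differences of the 50 genes were -0.02 and -0.18 for NR4A3 siRNA with and without LPS, and -0.02 and -0.19 for LPS with NR4A3 siRNA and control siRNA. In the same order 26, 45, 27 and 34 of the 50 were below 0. The LPS effect under NR4A3 siRNA minus that under control siRNA was above 0 for 42 of the 50, with a median of 0.19, so this direction is not particular to the 45.

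Mitosis genes had larger median differences than the 45 in 3 of the 4 comparisons, and a smaller one for NR4A3 siRNA with LPS. For 11 of them the median was -0.93 for LPS with NR4A3 siRNA and -1.53 with control siRNA, and -0.09 for NR4A3 siRNA with LPS and -0.93 without. With LPS only 6 of the 11 reached 6.66 on either array, so the median of -0.09 rests partly on low levels. Ccnb2, cyclin B2, had 6.61 and 6.67 with LPS under NR4A3 siRNA and control siRNA, against 9.16 and 10.22 without. In limma's fit 9 of 10 tested fell with LPS, where 14.4% of all genes did. For NR4A3 siRNA 0 passed (5 lower and 0 higher at an unadjusted p of 0.05, where 11.4% and 14.8% of all genes were). For 8 of 10 the LPS effect under NR4A3 siRNA was at least 1.5-fold above that under control siRNA. So it was for 0 of 39 replication genes and 2.9% of all 10592. All 11 had their highest level with control siRNA without LPS, an array that each of these differences includes. Plk1, Bub1, Kif11 and Cdc20 were below 6.66 on both LPS arrays, so they passed the filter only through arrays without LPS. Cdc20 passed through control siRNA without LPS alone (7.56). These genes are among the 9 that fell with LPS and among the 8 with a higher LPS effect under NR4A3 siRNA. The difference between these lists was not tested.

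Genes of G1 control, which act ahead of the E2F switch, moved in both directions with LPS: of 24 tested 7 fell and 4 rose. Of all 10592 genes 14.4% fell and 15.6% rose, so the share that rose is near that of all genes. Ccnd2, cyclin D2, stood at 12.12 and 12.72 with LPS under NR4A3 siRNA and control siRNA, against 9.69 and 9.75 without, and rose by 2.70 ± 0.15 (adjusted p 0.00017). Myc, a driver of growth and division, stood at 7.24 and 7.002 with LPS under NR4A3 siRNA and control siRNA, against 9.08 and 8.60 without, and fell by 1.72 ± 0.11 (adjusted p 0.00028). Cdkn2b, an inhibitor of the cyclin D kinases, rose by 1.27 ± 0.11 (adjusted p 0.00071).

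With NR4A3 siRNA 3 of the 24 fell and 0 rose in limma's fit, where 3.58% and 1.98% of all genes did. At an unadjusted p of 0.05, 9 were lower and 1 higher, against 11.4% and 14.8% of all genes. Cdkn2c, another inhibitor of these kinases, had 6.99 with NR4A3 siRNA and 7.83 with control siRNA under LPS, and 7.64 and 8.97 without, and fell by 1.08 ± 0.14 (adjusted p 0.019). E2f5, a repressor of the E2F family, had 7.96 and 8.91 with LPS and 6.94 and 7.60 without in the same siRNA order, and fell by 0.80 ± 0.11 (adjusted p 0.023). Rbl1, a relative of the retinoblastoma protein, fell by 0.52 ± 0.10 (adjusted p 0.049).

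**Figure D5:**
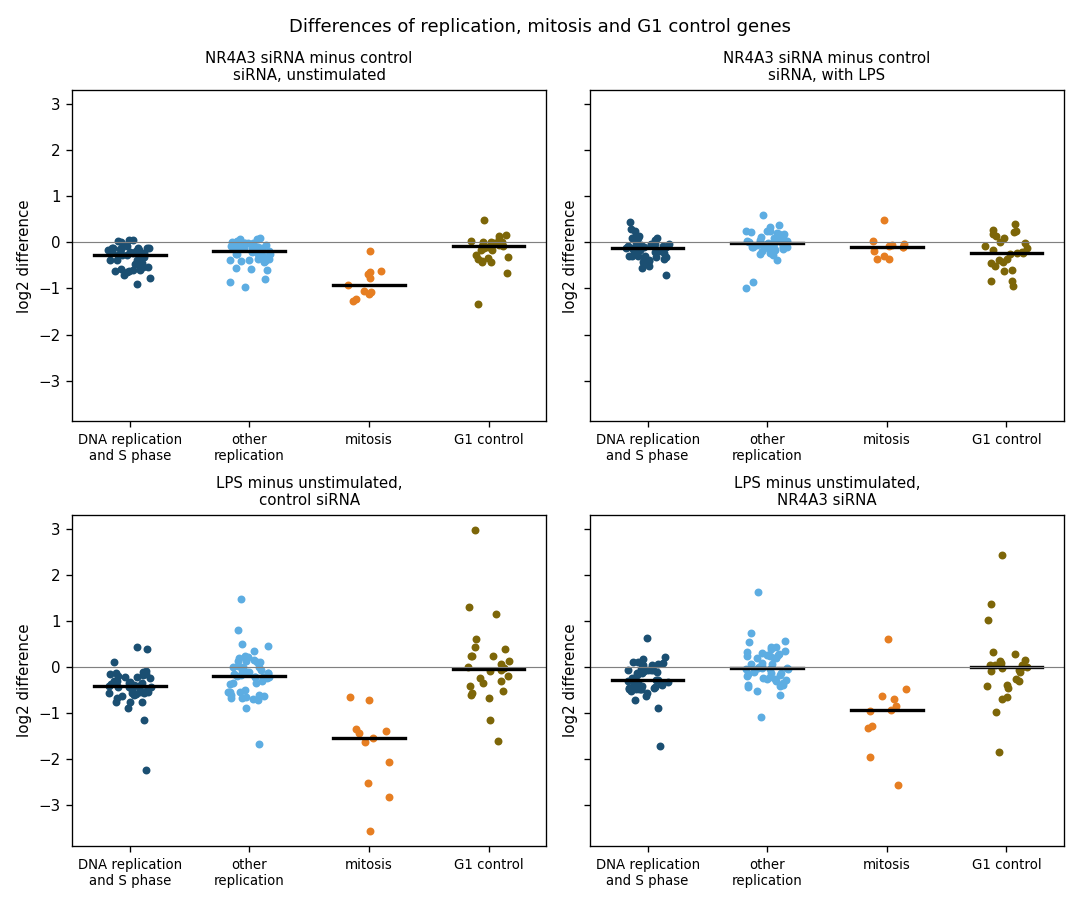
Log2 differences of single genes in the 4 comparisons for the 45 replication genes, 50 other replication genes, 11 mitosis genes and 26 G1 control genes, each point a gene and each bar the median. The 45 genes have medians from -0.40 to -0.12, and the mitosis genes lie lowest in the panels of NR4A3 siRNA without LPS and of LPS under either siRNA.

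Markers of other cells moved with the same conditions. The summed level of 3 monocyte markers, as log2 of the sum of linear values, was 10.35 on both LPS arrays, and 11.91 with NR4A3 siRNA and 11.98 with control siRNA without LPS. The brightest probe sets weigh most in such a sum: of these 3 markers Ccr2 and F13a1 fell with LPS and Plac8 rose. That of 7 macrophage markers was 14.35 with NR4A3 siRNA and 13.91 with control siRNA under LPS, and 14.12 and 13.75 without. Here the sum runs against most members for LPS. By sign 5 of the 7 were lower with LPS under either siRNA, and with NR4A3 siRNA 6 were higher under LPS and 7 without. In limma's fit 4 fell with LPS (C1qa, C1qb, Mertk and Mrc1) and 2 rose (Adgre1 and Fcgr1), where 14.4% and 15.6% of all genes did. With NR4A3 siRNA 3 rose in the fit (C1qa, C1qb and Mrc1) and 0 fell, where 1.98% and 3.58% of all genes did. That of 8 dendritic cell markers was 14.89 and 15.21 with LPS and 14.68 and 15.11 without. The 5 early progenitor markers gave 9.33 and 9.32 with LPS and 8.99 and 9.21 without, and the 10 neutrophil markers 9.73 and 9.49 with LPS and 9.69 and 9.58 without. The 45 replication genes gave 13.59 and 13.61 with LPS and 13.82 and 14.11 without, all in the same siRNA order. The progenitor sums hide members that went opposite ways. NR4A3 siRNA minus control siRNA (log2) was 0.78 with LPS and -1.09 without for Kit, but -1.33 and 0.08 for Cd34. With NR4A3 siRNA 3 of the 5 progenitor markers were lower and 2 higher under LPS, and 2 lower and 3 higher without. Of the 10 neutrophil markers, S100a8 alone reached the median level of named genes on any array. The part of any of these cell types in the results was not tested.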

How the data were processed

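Total RNA was hybridised to Affymetrix Mouse Gene 1.0 ST arrays, 1 per condition. The deposited values are log2 expression values computed by the authors with RMA, quantile normalization included, per the labels; Affymetrix Expression Console 1.1 is named in the submitters' processing notes, and the genome build is not given in the sources used here. Quantile normalization hides a shift of most genes in 1 direction. Precision is limited by the number of arrays.

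Of 28856 probe sets, 21789 had 1 symbol in the platform annotation, giving 19938 genes. The 1621 probe sets with several symbols and 5446 with none were not used. A gene is its probe set with the highest mean. Differences between 2 arrays were counted at 1.5-fold with the brighter array at 6.66 (median of named genes) or more. The additive fit used limma 3.58.1 (R 4.3.3), lmFit and eBayes, on 10592 genes with at least 1 array at 6.66, with 3 coefficients, 1 residual and 4.76 prior degrees of freedom, and Benjamini-Hochberg adjustment. It was tested on simulated data with siRNA effects and equal noise on each array. Those data held no LPS effect and no difference between LPS effects, so they do not check what the residual holds here. The p-values of the fit reflect only how these 4 arrays vary, which may be technical, and the fit was chosen after results of these data had been seen.

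The genes and lists were chosen with earlier results of these data known. By the rule for named genes, the text may name all 45 genes, Nr4a3 as the check of the siRNA, and from each other list up to 4 genes per comparison with the largest differences past 1.5-fold; marker genes are named from the marker lists. Alternatives were median centring, cyclic loess, repeated quantile normalization, no filter, a filter at 8.67, averaging the probe sets of a gene, thresholds of 2-fold and of 0.32 on the log2 scale, and eBayes with a trend or robust prior.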

Additional observations from a re-analysis of the deposited data

Results flagged for a closer look

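For 7 of the 39 genes that reached 6.66 on at least 1 array, a difference had opposite signs in both settings of the same contrast, and the settings differed by at least 0.32 on the log2 scale; with 1 array per condition the difference was not tested. Gins1, below 6.66 on all arrays, had such signs too, with a gap of 0.34. NR4A3 siRNA minus control siRNA was 0.25 with LPS and -0.20 without for Pcna, 0.06 and -0.27 for Chaf1b, a histone chaperone subunit, 0.10 and -0.38 for Uhrf1, which keeps DNA methylation through replication, 0.45 and -0.07 for E2f8, and 0.15 and -0.22 for Slbp, the histone mRNA binding protein. The gaps between these settings were 0.46, 0.33, 0.47, 0.52 and 0.37 on the log2 scale. LPS minus unstimulated was 0.04 with NR4A3 siRNA and -0.35 with control siRNA for Mcm6, 0.10 and -0.43 for Pold1, 0.07 and -0.41 for Uhrf1, and 0.18 and -0.19 for Slbp, with gaps of 0.39, 0.53, 0.47 and 0.37. In Pcna the second probe set gave 0.26 with LPS and -0.20 without for the siRNAs, and in Slbp 0.06 and -0.22.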

How the results depend on the processing

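No paired analysis was possible because each condition had 1 array. With the filter at the 75th percentile, 0 genes were higher with LPS under NR4A3 siRNA, 5 lower under control siRNA, 0 lower with NR4A3 siRNA under LPS and 2 without LPS, and the fit called 7 lower and 0 higher for LPS and 0 lower for NR4A3 siRNA. Fewer genes pass that filter. At 2-fold, 1 gene was lower and 0 higher with LPS under NR4A3 siRNA, 2 lower and 0 higher under control siRNA, and 0 lower with NR4A3 siRNA in either state. At a log2 difference of 0.32, 16 were lower with LPS under NR4A3 siRNA, 29 lower and 2 higher under control siRNA, 8 lower and 1 higher with NR4A3 siRNA under LPS, 17 lower without LPS, and 8 had a higher LPS effect under NR4A3 siRNA. With cyclic loess 2 genes were lower with NR4A3 siRNA under LPS and the fit called 2 for NR4A3 siRNA; without a filter it called 1, and with median centring or the mean of probe sets 6 each against 4. With repeated quantile normalization 0 genes were higher with LPS under NR4A3 siRNA. The cause of these 3 kinds of move was not tested. Of 23 single-gene calls between 2 arrays, 118 of 138 recomputations kept the call and 20 fell short of it. For 26 calls of the fit 167 of 189 recomputations kept it and 22 did not, and 0 changed sign in either kind. A gene that a stricter filter left out of the fit has no recomputation there, so such lost calls are not among the 189. Between 2 arrays a gene below the filter counts as falling short, so the 2 kinds are not alike.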
